A study of Mus musculus with 9 samples.

Results

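Mitochondrial ribosomal protein genes were followed across sorted epithelial cells of mouse kidney and small intestine. They were taken as every gene whose array name begins with Mrpl or Mrps and a number, and 75 genes on 125 probes met that rule, of 28478 gene names on 41174 probes. By name, 46 were Mrpl genes, for the large subunit, and 29 were Mrps genes, for the small subunit. The names are older than the structures: in mammalian ribosomes the proteins of Mrps30 and Mrps18a sit in the large subunit, and Mrps36 has since been reassigned to another complex. All samples came from C57BL/6 mice, and no genotype or treatment differed between groups. Kidney cells were sorted as Epcam+ CD45- Fluorogold-, with 4 mice pooled per sample. MHCIIhi cells of the small intestine were sorted as Epcamhi MHChi CD45- Fluorogold-, and MHCIIlo cells as Epcamint MHCint CD45- Fluorogold-, with 3 mice pooled per sample. Epcam is an adhesion molecule of epithelia, CD45 marks leukocytes and Fluorogold stained dead cells. Each group had 3 independent pools, each read on its own single-colour array.

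The mitochondrial ribosome sits at the inner mitochondrial membrane and translates the few proteins encoded by mitochondrial DNA, which are core subunits of the respiratory chain and of ATP synthase. Its own proteins are encoded in the nucleus, made in the cytosol and imported. Some descend from bacterial ribosomal proteins, and others are found in mitochondrial ribosomes without a bacterial counterpart. Of the 75 genes, 48 were counted to the first kind and 27 to the second. The 27 include Mrps36 by its name, although it has been reassigned to another complex. Kidney tubule cells and absorptive enterocytes are both rich in mitochondria, and crypt cells of the intestine divide throughout life.

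A level is the log2 of a probe's processed signal over the 75th percentile of its array, and differences are log2 values with the standard error (SE) of a limma fit to all 9 arrays. The 75th percentile signal was 599 to 770 on kidney arrays, 213 to 371 on MHCIIhi arrays and 101 to 185 on MHCIIlo arrays. Kidney arrays lay on a slide of their own, so slide and kidney cannot be told apart. MHCIIhi 1 and 2 shared a slide, and MHCIIhi 3 shared another with all 3 MHCIIlo arrays. The 10 cell cycle markers were all higher in MHCIIhi than in MHCIIlo, with a log2 summed level of 5.82 to 6.73 in MHCIIhi and 3.12 to 4.04 in MHCIIlo. Of 9 enterocyte markers, 8 were lower in MHCIIhi, at 9.81 to 11.0 in MHCIIhi and 11.5 to 12.1 in MHCIIlo. Lymphocyte markers were lower in MHCIIhi for 6 of 8 T cell genes (0.53 to 1.70, against 2.44 to 3.37 in MHCIIlo) and 3 of 8 B and plasma cell genes (2.51 to 2.82, against 4.81 to 5.34 in MHCIIlo). Of 5 macrophage and dendritic cell markers 1 was higher and 3 were lower in MHCIIhi, while their summed level was higher there, at 6.62 to 7.43 in MHCIIhi and 3.96 to 5.68 in MHCIIlo. Of 7 fibroblast and muscle markers 5 were lower in MHCIIhi, at 4.87 to 5.09 in MHCIIhi and 5.69 to 6.18 in MHCIIlo. All 8 kidney tubule markers were higher in kidney than in MHCIIhi. So were all 5 endothelial markers, at 4.33 to 5.53 in kidney, against -4.27 to -3.58 in MHCIIhi and -3.41 to -2.63 in MHCIIlo. Pecam1, Cdh5, Kdr and Emcn were not well above background on any intestinal array. The part of these markers in the results below was not tested. In such sorted bulk samples, fewer cells of a type and less RNA per cell cannot be told apart.

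All 75 genes were well above background on all 9 arrays. Their median level was 2.56, 2.51 and 2.50 on the kidney arrays, 2.72, 2.97 and 2.53 on the MHCIIhi arrays, and 2.45, 1.92 and 2.12 on the MHCIIlo arrays. The 3 kidney arrays were close together, MHCIIhi 2 was the highest of the 9, and MHCIIlo 2 and 3 were the lowest. MHCIIhi 3 and MHCIIlo 1 lay nearest to each other among arrays of the 2 intestinal groups. The median SD within a group was 0.11 in kidney, 0.27 in MHCIIhi and 0.27 in MHCIIlo. The fit shares 1 estimate of the spread over the groups, so the SE of MHCIIhi minus MHCIIlo also draws on the narrower kidney spread. The mean level was highest in MHCIIhi for 38 genes, in kidney for 25 and in MHCIIlo for 12. It was lowest in MHCIIlo for 50, in kidney for 23 and in MHCIIhi for 2. The brightest probes were those of Mrpl33, Mrpl28, Mrpl51, Mrpl14 and Mrpl20, and the dimmest those of Mrps27, Mrps18b, Mrpl19, Mrps2 and Mrpl9. Probe brightness is no measure of how much of one gene's RNA there is against another's. Of the 75 genes, 44 passed the threshold in no comparison.

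**Figure D1:**
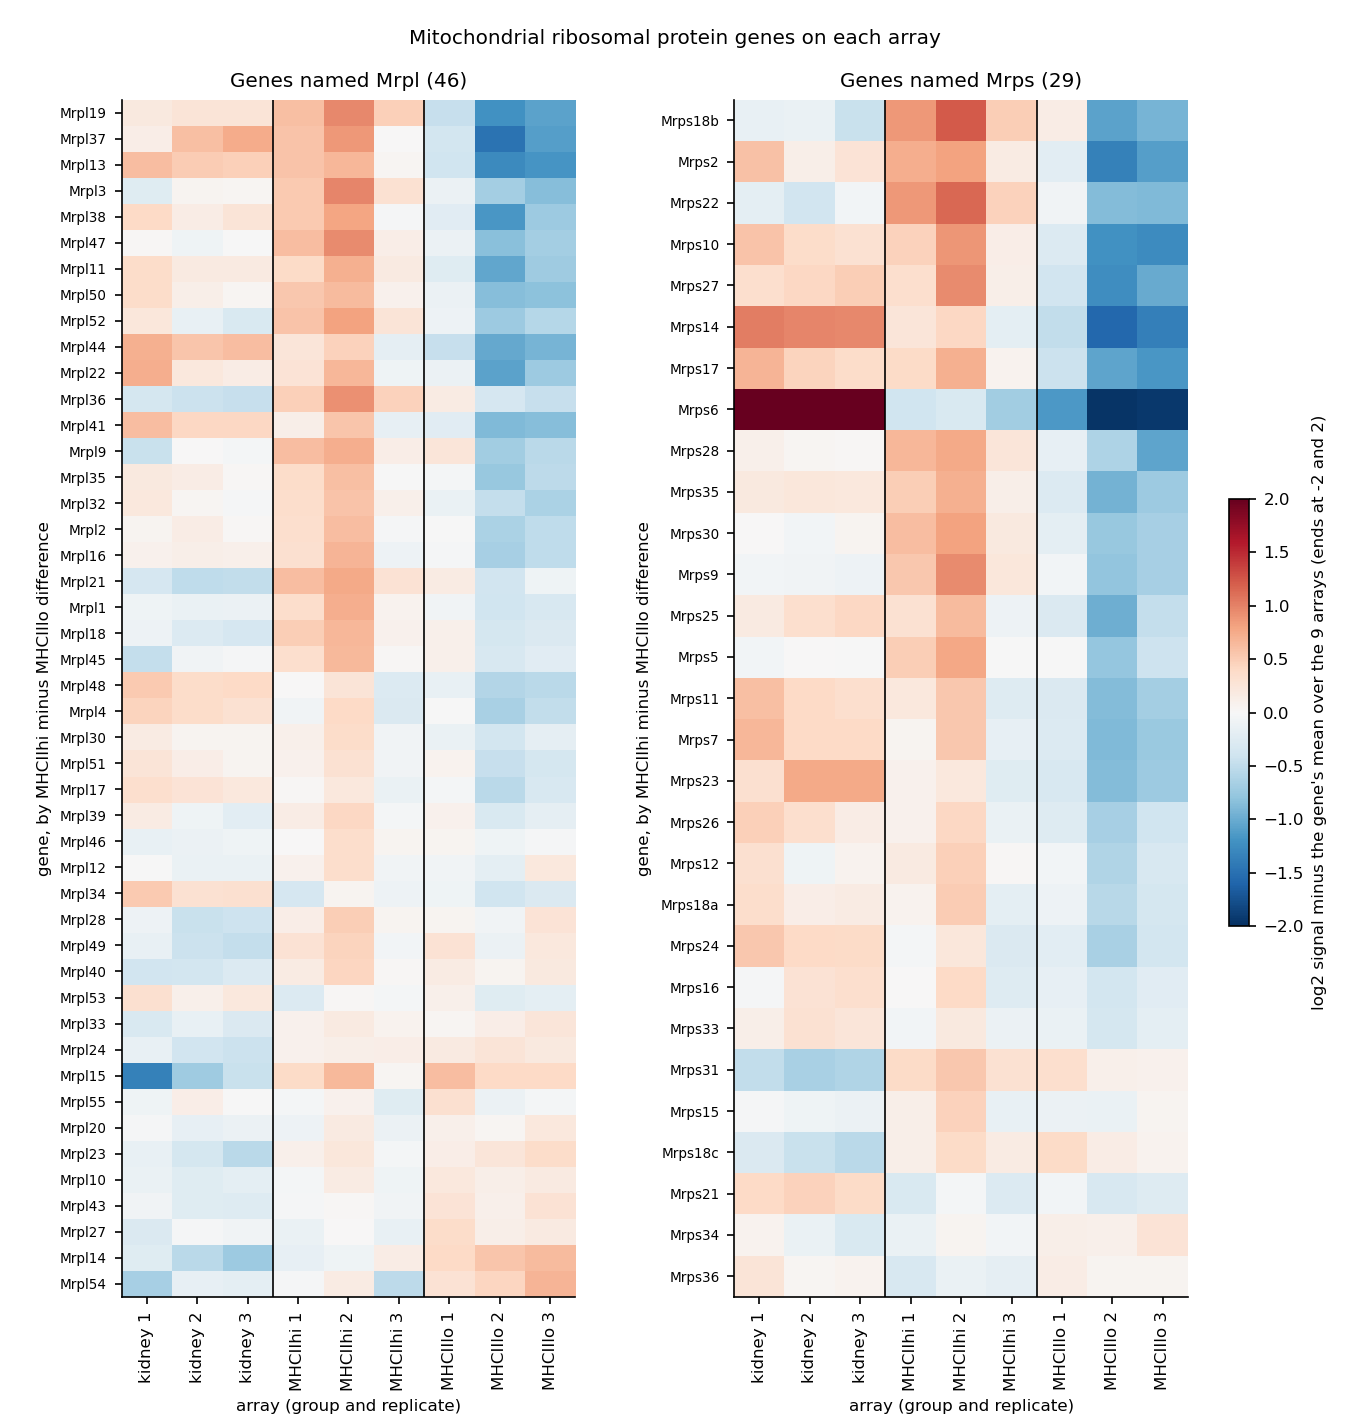
Heat map of the 75 mitochondrial ribosomal protein genes (rows) on the 9 arrays (columns: kidney, MHCIIhi, MHCIIlo), genes named Mrpl left and Mrps right; colour is log2 signal minus the gene's mean over the 9 arrays. MHCIIlo 2 and 3 are low for most genes near the top, MHCIIhi 2 is high for most, and Mrps6 is far higher in kidney.

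The first comparison was between intestinal cells with high and with intermediate MHC class II. Mitochondrial ribosomal protein genes were higher in MHCIIhi for 21 of 75 at a limma adjusted p below 0.05 and a log2 difference of at least 1, which is 28.0% against 14.9% of the 19993 genes tested. None was lower by that rule, against 16.1% of all genes. At the adjusted p alone, 39 were higher and 1 was lower (21.6% and 28.5% of all genes). In 62 of the 75 the mean was higher in MHCIIhi, and the median difference was 0.59, beside -0.24 over all genes tested. All 3 MHCIIhi arrays lay above all 3 MHCIIlo arrays for 38 genes and below them for 7 (23.7% and 32.7% of all genes).

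Mrpl19, a large subunit protein with a bacterial counterpart, differed most. Its level was 0.88, 1.24 and 0.76 in MHCIIhi, against -0.19, -0.94 and -0.80 in MHCIIlo. Every MHCIIhi array was above every MHCIIlo array, and the difference was 1.60 ± 0.23 (3.03-fold; limma adjusted p = 0.0013). Mrpl37, found in mitochondrial ribosomes alone, had 1.29, 1.59 and 0.72 in MHCIIhi and 0.34, -0.76 and -0.39 in MHCIIlo. The groups did not overlap, with MHCIIlo 1 nearest to MHCIIhi, and the difference was 1.47 ± 0.33 (limma adjusted p = 0.00842). Mrps22, a mitochondria-specific small subunit protein whose human gene is mutated in a combined respiratory chain deficiency, had 2.11, 2.38 and 1.69 in MHCIIhi and 1.16, 0.37 and 0.35 in MHCIIlo. It was 2.70-fold higher in MHCIIhi (1.43 ± 0.27; limma adjusted p = 0.0041), again with no overlap. Mrps10, a small subunit protein of the head region, had 2.33, 2.75 and 2.0 in MHCIIhi and 1.60, 0.66 and 0.61 in MHCIIlo, a difference of 1.40 ± 0.30 (limma adjusted p = 0.00671). Here too the MHCIIlo arrays 2 and 3 were lowest and MHCIIlo 1 stood between them and MHCIIhi.

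Mrps2, whose bacterial counterpart binds the small subunit late in assembly, was higher in MHCIIhi by 1.45 ± 0.32 (limma adjusted p = 0.00726) on the probe used. Its other probes differed by -0.57 and -0.33, so its probes disagree in direction. Mrps18b likewise was higher by 1.48 ± 0.33 (limma adjusted p = 0.00799) on the probe used and lower by -0.54 on a second probe. Over 31 genes with further tested probes, 42 of the 45 such probes had the sign of the probe used in this comparison, and 5 were apart from it by more than 1. Agreement was poorer in the comparisons with kidney: 32 of 45 had the same sign and 10 were apart by more than 1 for kidney minus MHCIIhi, and 30 and 15 for kidney minus MHCIIlo. When all of a gene's probes were averaged, dim ones included, 14 genes were higher in MHCIIhi, beside 13.6% of all genes. Mrpl47, Mrpl52 and Mrps30, each with a probe not well above background on any array, were among the calls lost.

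The count depended on which arrays entered. With slide as a fixed block the contrast rests on MHCIIhi 3 alone against the 3 MHCIIlo arrays of its slide, and MHCIIhi 3 is assumed to vary like arrays of the other slides. The median difference was then 0.31, the mean was higher in MHCIIhi for 54 of 75 genes, and 1 passed (Mrpl19, 1.40 ± 0.32, limma adjusted p = 0.0365). The slide and the loss of MHCIIhi 1 and 2 from the contrast cannot be told apart there. Without MHCIIhi 2, 12 of 75 genes were higher, beside 12.8% of all genes, and without MHCIIlo 2 it was 13, beside 13.4%. Without both MHCIIhi 3 and MHCIIlo 1 it was 34, beside 18.2% of all genes.

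By name, 12 of 29 Mrps genes and 9 of 46 Mrpl genes were higher in MHCIIhi, with median differences of 0.79 and 0.41. By place in mammalian structures it was 11 of 26 small subunit genes and 10 of 48 large subunit genes, with medians of 0.80 and 0.45. Genes with a bacterial counterpart were higher for 13 of 48, and mitochondria-specific genes, Mrps36 counted with them, for 8 of 27. The medians were 0.65 and 0.48. A difference between these subsets was not tested. Members on dimmer probes differed more between the intestinal groups. Where the mean level over the 9 arrays lay between 0 and 1, the median difference was 1.11 over 11 members, beside -0.00 over all 2166 genes of that level. From 1 to 2 it was 0.77 over 19 members, beside -0.13 over all genes. It was 0.47 over 15 members from 2 to 3 and 0.47 over 16 from 3 to 4, beside -0.22 and -0.39 over all genes. From 4 to 5 it was -0.13 over 10 members, beside -0.38 over all genes. Each of these bins held under 20 members, 4 members lay outside them, and the part of the lower overall signal of the MHCIIlo arrays was not tested.

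**Figure D2:**
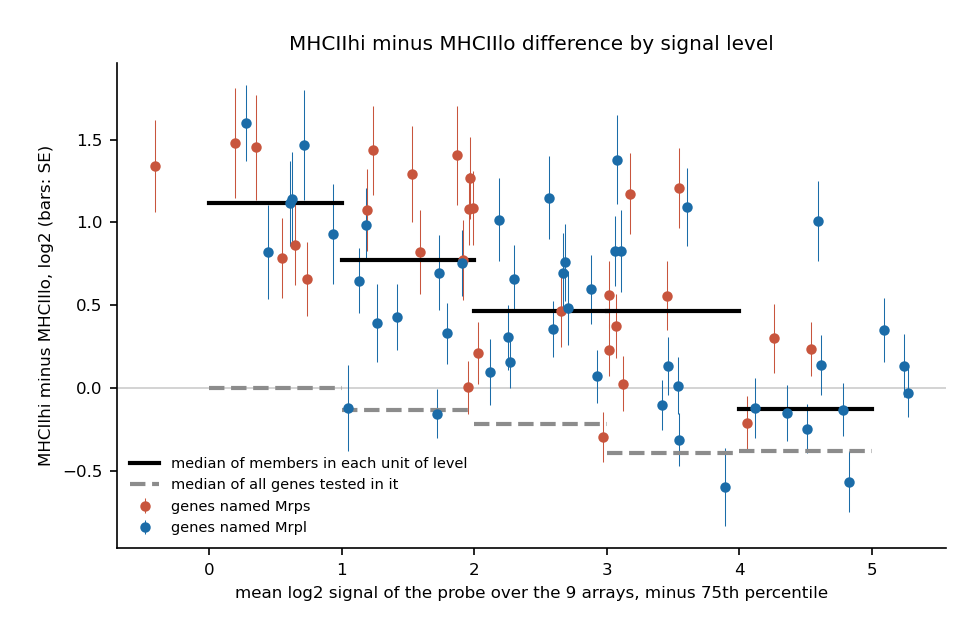
MHCIIhi minus MHCIIlo difference (vertical axis, log2, with SE bars) against the mean log2 signal of the probe over the 9 arrays (horizontal axis) for genes named Mrps and Mrpl; black lines are medians of the members in each unit of level and dashed lines those of all genes tested. The member medians fall from 1.11 at levels of 0 to 1 to -0.13 at levels of 4 to 5 and stay above the dashed lines.

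Genes with a known place in the ribosome did not move as a block. Mrpl11, at the base of the stalk that recruits translation factors, was higher in MHCIIhi, at 3.99, 4.32 and 3.79 in MHCIIhi and 3.36, 2.57 and 2.89 in MHCIIlo (1.09 ± 0.23; limma adjusted p = 0.00671). Mrpl12, a stalk protein reported to bind the mitochondrial RNA polymerase in human cells, had 4.69, 4.97 and 4.54 in MHCIIhi and 4.54, 4.42 and 4.82 in MHCIIlo. These ranges overlapped, and the difference was 0.14 ± 0.18 (limma adjusted p = 0.542). Mrpl10, which anchors Mrpl12 in the stalk, differed by -0.15 ± 0.15 (limma adjusted p = 0.406). Mrps12, part of the decoding centre, differed by 0.56 ± 0.21 (limma adjusted p = 0.0519), with groups that did not overlap. Mrpl45, which holds the ribosome at the inner membrane beside the exit tunnel, differed by 0.48 ± 0.22 (limma adjusted p = 0.101) on the probe used. On its other, dimmer probe it differed by 1.13 ± 0.27 (limma adjusted p = 0.0108), so its result rests on the probe chosen. Mrpl44, which has a ribonuclease III fold, differed by 0.99 ± 0.22 (limma adjusted p = 0.00807) and so passed the p but not the size threshold on the probe used. Its other probes differed by 1.13 and 1.20, above the size threshold. Mrps36, since reassigned to the 2-oxoglutarate dehydrogenase complex, differed by -0.30 ± 0.15 (limma adjusted p = 0.126). The members that ran lowest in MHCIIhi were Mrpl54 (-0.60 ± 0.23; limma adjusted p = 0.0595) and Mrpl14 (-0.57 ± 0.18; limma adjusted p = 0.0317), both chosen after their values were seen.

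The 3 Mrps18 paralogs are related to the bacterial S18 protein and occupy different sites of the mammalian mitochondrial ribosome, with Mrps18c at the site of S18 and Mrps18a in the large subunit. On the probes used their levels were as follows. Mrps18a had 3.00, 2.79 and 2.82 in kidney, 2.73, 3.16 and 2.45 in MHCIIhi, and 2.55, 2.10 and 2.30 in MHCIIlo, and its intestinal groups overlapped (0.47 ± 0.22; limma adjusted p = 0.102). Mrps18b had 0.04, 0.06 and -0.24 in kidney, 1.06, 1.43 and 0.69 in MHCIIhi, and 0.34, -0.87 and -0.73 in MHCIIlo. On this probe it passed as higher in MHCIIhi than in MHCIIlo and as lower in kidney than in MHCIIhi (-1.11 ± 0.33; limma adjusted p = 0.0167). Its other tested probe ran the opposite way in both, at -0.54 for MHCIIhi minus MHCIIlo and 0.44 for kidney minus MHCIIhi. The average of its probes also took in an untested probe, well above background on 1 kidney array and on no intestinal array. With that average, kidney minus MHCIIhi was -0.16 (limma adjusted p = 0.511), and both calls were lost. Mrps18c had 2.83, 2.69 and 2.59 in kidney, 3.25, 3.51 and 3.29 in MHCIIhi, and 3.50, 3.27 and 3.19 in MHCIIlo. It did not separate the intestinal groups (0.03 ± 0.17; limma adjusted p = 0.904), and every kidney array lay below every intestinal array. The 150 bases before each start, from RefSeq on GRCm38.p6, are shown for comparison of paralogs of 1 protein family. They lie at chr17:46110854-46111003 on the plus strand for Mrps18a, chr17:35916441-35916590 on the minus strand for Mrps18b and chr5:100798609-100798758 on the plus strand for Mrps18c. Capitals mark an ETS motif in Mrps18a and 2 GC boxes in Mrps18b, and none of the ETS, YY1, NRF1 or GC box motifs was found in these bases of Mrps18c.
Mrps18a: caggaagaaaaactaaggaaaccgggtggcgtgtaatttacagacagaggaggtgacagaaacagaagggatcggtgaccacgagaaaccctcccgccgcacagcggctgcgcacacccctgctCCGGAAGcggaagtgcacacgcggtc
Mrps18b: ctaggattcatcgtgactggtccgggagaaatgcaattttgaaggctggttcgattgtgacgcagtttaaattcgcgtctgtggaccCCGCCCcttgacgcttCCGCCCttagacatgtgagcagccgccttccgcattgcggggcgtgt
Mrps18c: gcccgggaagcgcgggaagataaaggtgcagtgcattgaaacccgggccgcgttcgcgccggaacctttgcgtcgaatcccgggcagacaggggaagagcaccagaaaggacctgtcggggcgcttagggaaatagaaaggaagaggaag

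The kidney comparisons set kidney epithelium against each intestinal group, and they share the kidney arrays. Mrps6, a small subunit protein of the platform, stood apart from all other members. Its level was 5.76, 5.58 and 5.72 in kidney, 3.15, 3.24 and 2.85 in MHCIIhi, and 2.40, 1.59 and 1.62 in MHCIIlo. No 2 groups overlapped. Kidney was 6.09-fold above MHCIIhi (2.61 ± 0.24; limma adjusted p = 1.86e-05) and 14.1-fold above MHCIIlo (3.82 ± 0.24; limma adjusted p = 1.56e-06). MHCIIhi was 2.31-fold above MHCIIlo (1.21 ± 0.24; limma adjusted p = 0.00505). A second probe gave 2.66 for kidney minus MHCIIhi, 3.79 for kidney minus MHCIIlo and 1.13 for MHCIIhi minus MHCIIlo. Both kidney differences passed under every alternative tried.

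Mrps6 lies at chr16:92058336-92112227 in GRCm38.p6 and overlaps Slc5a3, a myo-inositol transporter of osmotically stressed kidney cells, at chr16:92058322-92087473. The annotated starts are 14 bases apart. Slc5a3 had 3.35, 3.23 and 3.95 in kidney, -0.30, 0.19 and -0.03 in MHCIIhi, and -0.91, -1.35 and -0.65 in MHCIIlo. Its order of groups was that of Mrps6, with differences of 3.56 ± 0.26 for kidney minus MHCIIhi (limma adjusted p = 4.91e-06) and 4.48 ± 0.26 for kidney minus MHCIIlo (limma adjusted p = 1.03e-06). Whether the Mrps6 probes also read transcripts of Slc5a3 was not tested. The 150 bases before the Mrps6 start (chr16:92058186-92058335, plus strand, GRCm38.p6, RefSeq) are shown because this member changed most. Capitals mark the GC boxes, which begin 114, 109, 95 and 79 bases before the start, the first 2 sharing a base.
Mrps6: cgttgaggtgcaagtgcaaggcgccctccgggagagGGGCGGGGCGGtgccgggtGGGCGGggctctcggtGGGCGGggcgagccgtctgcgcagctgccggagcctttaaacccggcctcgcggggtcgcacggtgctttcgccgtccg

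**Figure D3:**
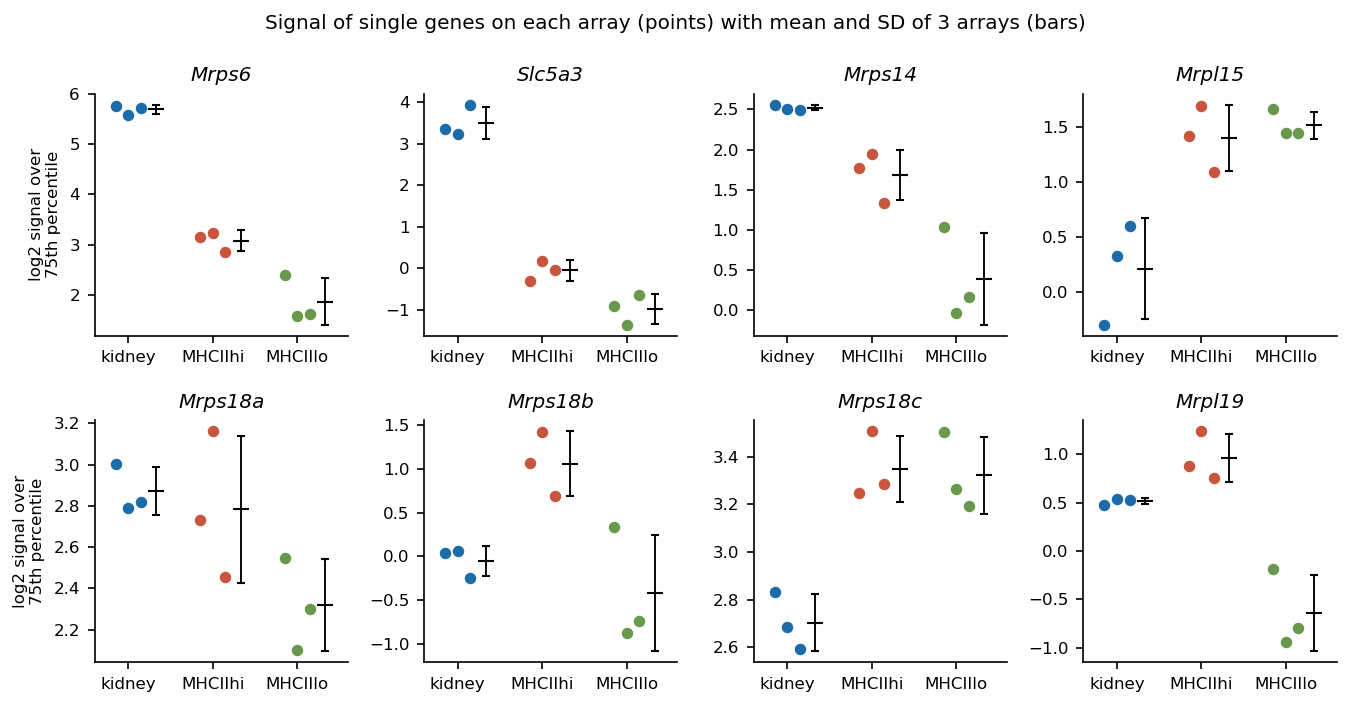
Log2 signal over the 75th percentile (vertical axis, own scale per gene) of Mrps6, its neighbour Slc5a3 and 6 other members on each array of kidney, MHCIIhi and MHCIIlo; bars give the mean and SD of 3 arrays. Mrps6 and Slc5a3 are highest on all 3 kidney arrays, Mrpl15 is lowest there, and Mrps18b and Mrpl19 are highest in MHCIIhi.

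Against MHCIIlo, kidney was higher for 15 members and lower for 2, beside 29.8% and 27.8% of all genes. At the adjusted p alone it was 31 and 10 (36.9% and 35.5% of all genes), and the median difference was 0.44, beside 0.04 over all genes. All kidney arrays lay above all MHCIIlo arrays for 39 members and below them for 17 (39.7% and 38.5% of all genes). Mrps14, a protein of the head of the small subunit, came after Mrps6. It had 2.56, 2.51 and 2.50 in kidney, 1.77, 1.95 and 1.34 in MHCIIhi, and 1.04, -0.03 and 0.17 in MHCIIlo, and no groups overlapped. Kidney was 4.38-fold above MHCIIlo (2.13 ± 0.29; limma adjusted p = 0.000158). Mrpl13 had 3.70, 3.58 and 3.55 in kidney and 2.68, 1.80 and 1.90 in MHCIIlo (1.49 ± 0.27; limma adjusted p = 0.000904). Mrpl37 differed by 1.48 ± 0.33 (limma adjusted p = 0.00329) and Mrpl44 by 1.43 ± 0.22 (limma adjusted p = 0.000368). Mrps17 was higher in kidney by 1.38 ± 0.25 (limma adjusted p = 0.000876) on the probe used and lower by -0.59 on its other probe. Of 29 Mrps genes 9 (31.0%) were higher in kidney than in MHCIIlo, near the 29.8% of all genes, and 0 were lower. At the limma adjusted p alone it was 18 and 2. Among the 9 was Mrps2, with 1.22 on the probe used but -0.88 and -2.58 on its other probes. Of 46 Mrpl genes 6 (13.0%) were higher and 2 lower.

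The exceptions were Mrpl15 and Mrpl14, both large subunit proteins with bacterial counterparts. Mrpl15 had -0.30, 0.33 and 0.60 in kidney, 1.42, 1.70 and 1.09 in MHCIIhi, and 1.66, 1.45 and 1.45 in MHCIIlo. Every kidney array was below every intestinal array (kidney minus MHCIIlo -1.31 ± 0.26; limma adjusted p = 0.00159). Mrpl14, which lies at the face that meets the small subunit, had 4.59, 4.28 and 4.10 in kidney, 4.66, 4.74 and 4.98 in MHCIIhi, and 5.23, 5.39 and 5.46 in MHCIIlo. Its order was MHCIIlo, then MHCIIhi, then kidney, with no overlap, and kidney minus MHCIIlo was -1.03 ± 0.18 (limma adjusted p = 0.000843). This call for Mrpl14 was lost in 7 of 22 alternatives, among them quantile normalization, cyclic loess, normexp and leaving out MHCIIlo 3 or kidney 3, with values between -1.33 and -0.14 and adjusted p up to 0.446. The call for Mrpl15 was lost in 0 of 22. The counts for kidney minus MHCIIlo moved with the scaling. Quantile normalization gave 32 of 75 higher and 1 lower, beside 31.7% and 27.3% of all genes. The authors' deposited value table, which is scaled to the median of each array, gave 7 and 4, beside 25.3% and 33.5%. Members were thus called higher in kidney more often than all genes with quantile normalization. They were called higher less often than all genes as reported and with the authors' values. Whether the share called higher exceeded that of all genes thus depended on the scaling. The member median lay above the median of all genes in each of these 3 scalings. It did so by 0.41 as reported, 0.41 with the authors' values and 0.71 with quantile normalization.

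Against MHCIIhi, kidney was higher for 1 member, Mrps6, and lower for 5, beside 25.6% and 22.8% of all genes. The adjusted p alone gave 5 higher and 16 lower (32.1% and 31.2% of all genes). All kidney arrays lay above all MHCIIhi arrays for 11 members and below them for 28 (36.1% and 36.1% of all genes). The median difference was -0.19 here, but it was 0.10 with quantile normalization, 0.01 with scaling to the median of probes well above background on all arrays and 0.15 with cyclic loess, so its direction depends on the scaling. Mrpl15 differed by -1.19 ± 0.26 (limma adjusted p = 0.00333). Mrps22 had 1.05, 0.85 and 1.18 in kidney, all below its MHCIIhi values given above (-1.04 ± 0.27; limma adjusted p = 0.00876). Mrpl36, a small zinc-binding protein of the large subunit, had 2.72, 2.64 and 2.61 in kidney and 3.54, 3.98 and 3.53 in MHCIIhi (-1.03 ± 0.21; limma adjusted p = 0.00252). Mrpl21 had 1.97, 1.79 and 1.81 in kidney and 2.92, 3.06 and 2.58 in MHCIIhi (-1.0 ± 0.20; limma adjusted p = 0.00213). The fifth was Mrps18b, whose call rests on 1 of 2 tested probes that ran opposite ways. With scaling to the probes well above background, 0 members were lower and 2 were higher. Of 22 alternatives, the call was lost in 2 for Mrpl15, 5 for Mrpl36, 5 for Mrps18b, 6 for Mrps22 and 9 for Mrpl21.

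Some members hardly moved. Mrpl55 had a mean level of 4.13 ± 0.11 in the kidney arrays, 4.05 ± 0.16 in the MHCIIhi arrays and 4.18 ± 0.23 in the MHCIIlo arrays (SD over 3 arrays). Mrpl12, Mrpl20 and Mrps15 also had group means no more than 0.225 apart. For 16 members no comparison reached a limma adjusted p below 0.05, which does not show that they were equal.

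The promoters of the members were searched for short motifs of factors known for nuclear genes of mitochondrial proteins, on both strands of the window from 250 bases before to 50 after each RefSeq start. RefSeq windows were found for 66 of 75 members. The ETS motif CCGGAAG, bound by the GABP factor among others, was in the windows of 24 of 66 members (36.4%), beside 17.4% of 11664 tested genes with a window and 9.93% of all 27025 genes. The YY1 motif AAGATGGC was in 11 of 66 (16.7%), beside 4.61% and 3.19%. The motif of NRF1, a factor named for nuclear respiratory genes, was in 3 of 66 (4.55%), beside 1.90% and 1.07%. For the others, the GC box GGGCGG was in 32 members (48.5%, beside 63.5% and 38.2%), CCAAT in 26 (39.4%, beside 42.5% and 41.1%), the E-box CACGTG in 5 (7.58%, beside 11.1% and 8.09%) and TATAAA in 5 (7.58%, beside 10.7% and 15.7%). Motifs were counted each on their own, so that overlapping ones both count, and these shares are descriptions with no test. The median MHCIIhi minus MHCIIlo difference was 0.45 for the 24 members with the ETS motif and 0.72 for the 42 without it. It was 0.76 with the YY1 motif and 0.48 without. Mrps22 and Mrpl36 are shown as examples of either motif close to the start, each among the genes lower in kidney than in MHCIIhi. Mrps22 lies at chr9:98601680-98601829 on the minus strand and Mrpl36 at chr13:73330859-73331008 on the plus strand (150 bases before the start, GRCm38.p6). Capitals mark only ETS, YY1, NRF1 and GC box motifs: a GC box and, 11 bases before the start, the ETS motif of Mrps22, and the reverse complement of the YY1 motif beginning 30 bases before the start of Mrpl36.
Mrps22: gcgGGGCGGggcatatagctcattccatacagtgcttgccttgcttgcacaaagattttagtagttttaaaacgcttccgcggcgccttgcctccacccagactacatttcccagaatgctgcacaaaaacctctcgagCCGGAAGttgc
Mrpl36: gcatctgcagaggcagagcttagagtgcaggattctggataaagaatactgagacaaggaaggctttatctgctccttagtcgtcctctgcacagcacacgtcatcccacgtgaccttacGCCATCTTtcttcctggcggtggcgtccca

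Other genes of mitochondrial translation were read from lists. Their counts stand beside 14.9% of all genes higher and 16.1% lower in MHCIIhi than in MHCIIlo, and 29.8% higher and 27.8% lower in kidney than in MHCIIlo. Of 6 tested subunits with other names, Ptcd3 (1.31 ± 0.21; limma adjusted p = 0.00204) and Chchd1 (1.08 ± 0.24; limma adjusted p = 0.00729), both small subunit proteins, were higher in MHCIIhi than in MHCIIlo. Dap3, a GTP-binding small subunit protein, differed by 0.44 ± 0.16 (limma adjusted p = 0.047), and Mrpl57 by 0.60 ± 0.24, Gadd45gip1 by 0.25 ± 0.20 and Aurkaip1 by -0.10 ± 0.16 without passing. None of the 6 passed with the size threshold in either kidney comparison. Mrpl42, which the array lists under another name and which is neither a member nor in that list, was higher in kidney than in MHCIIlo by 1.23 ± 0.25 (limma adjusted p = 0.00173).

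Of 20 assembly factors, 7 (35.0%) were higher in MHCIIhi than in MHCIIlo and 0 lower, led by Noa1 (2.27 ± 0.35), a GTPase, and Fastkd2 (2.22 ± 0.33), an RNA-binding protein. Kidney was higher than MHCIIlo for 13 of these 20 (65.0%) and lower for 1, with a median difference of 1.17. It was highest over MHCIIlo for Gtpbp5 (2.52 ± 0.30), a GTPase of the large subunit, and lower for Mrm1 (-1.33 ± 0.17), a ribosomal RNA methyltransferase. The array carries Gtpbp5 also under its later name Mtg2, counted apart among the 20, where kidney minus MHCIIlo was 1.1. With normexp background correction, 3 of the 20 were higher in kidney than in MHCIIlo and 2 lower. Of 14 translation factors, 4 (28.6%) were higher in MHCIIhi than in MHCIIlo and 0 lower: the release factor Mtrf1 (2.03 ± 0.34), the elongation factor Tsfm (1.69 ± 0.40), the mRNA-stabilising Lrpprc (1.66 ± 0.32) and the recycling factor Mrrf (1.08 ± 0.24). Kidney was higher than MHCIIlo for 5 of them (35.7%), near the share of all genes, and no factor was called in kidney minus MHCIIhi. Of 20 genes that charge mitochondrial transfer RNAs, 7 (35.0%) were higher in MHCIIhi than in MHCIIlo, among them Yars2 (2.57 ± 0.38), and 1, Lars2, was lower (-1.27 ± 0.35). Of 18 import and quality control genes, 8 (44.4%) were higher in MHCIIhi and 0 lower, among them the chaperonins Hspd1 (2.11 ± 0.31) and Hspe1 (1.87 ± 0.27).

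Genes that act upstream were mixed. Of 6 mitochondrial transcription genes, Tfb2m (1.49 ± 0.33) and Tefm (1.04 ± 0.23) were higher in MHCIIhi than in MHCIIlo, and Tfam (-1.36 ± 0.34) and Mterf2 were lower. Of 10 regulators of mitochondrial biogenesis, Myc (3.27 ± 0.27) and Pprc1 (3.64 ± 0.37), a coactivator of proliferating cells, were higher in MHCIIhi, and Ppargc1a (-1.93 ± 0.54) and Esrra (-1.09 ± 0.20) were lower.

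The products of mitochondrial translation join nuclear-encoded subunits of oxidative phosphorylation, and 82 of those genes were tested. Of these 82, 1 (1.22%) was higher and 5 (6.10%) were lower in MHCIIhi than in MHCIIlo, beside 14.9% and 16.1% of all genes. With the size threshold fewer were thus called in either direction than among all genes. At the limma adjusted p alone, 1 of the 82 was higher and 34 were lower (21.6% and 28.5% of all genes). All MHCIIhi arrays lay above all MHCIIlo arrays for 2 and below them for 53 (23.7% and 32.7% of all genes). The median difference was -0.40, beside -0.24 over all genes and 0.59 for mitochondrial ribosomal protein genes. With quantile normalization these medians were -0.00, -0.07 and 0.78. Of the 82 oxidative phosphorylation genes, 6 (7.32%) were higher and 0 lower in kidney than in MHCIIhi, beside 25.6% and 22.8% of all genes. At the limma adjusted p alone, 37 of the 82 were higher and 0 lower (32.1% and 31.2% of all genes). With the size threshold fewer were called than among all genes, but this also depended on the scaling. Quantile normalization gave 48 of 82 higher, beside 25.5% of all genes, and cyclic loess 54 of 82, beside 22.9%. The median of these 82 genes, 0.42 as reported, lay between 0.14 and 1.15 under the other scalings and normexp background correction. Of 78 cytosolic ribosomal protein genes, 30 (38.5%) were higher and 1 (1.28%) lower in MHCIIhi than in MHCIIlo (median 0.92). All genes stood at 14.9% higher and 16.1% lower there. That count of 30 was 2 with slide as a fixed block, 18 without MHCIIlo 2, 41 without MHCIIlo 1, 47 without MHCIIhi 3 and MHCIIlo 1, 49 with quantile normalization, 52 with normexp and 62 with cyclic loess. Of the same genes 72 were lower and 1 higher in kidney than in MHCIIhi (median -1.35). The count of 72 fell to 11 with quantile normalization (median -0.65) and to 8 with cyclic loess (median -0.59). For kidney minus MHCIIlo the direction of both lists depended on the scaling. The median of the oxidative phosphorylation genes was 0.07, but -0.23 in the authors' deposited value table and 1.05 with quantile normalization. That of the cytosolic ribosomal protein genes was -0.48, but 0.53 with quantile normalization and 0.67 with cyclic loess. The lists were not tested against each other.

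**Figure D4:**
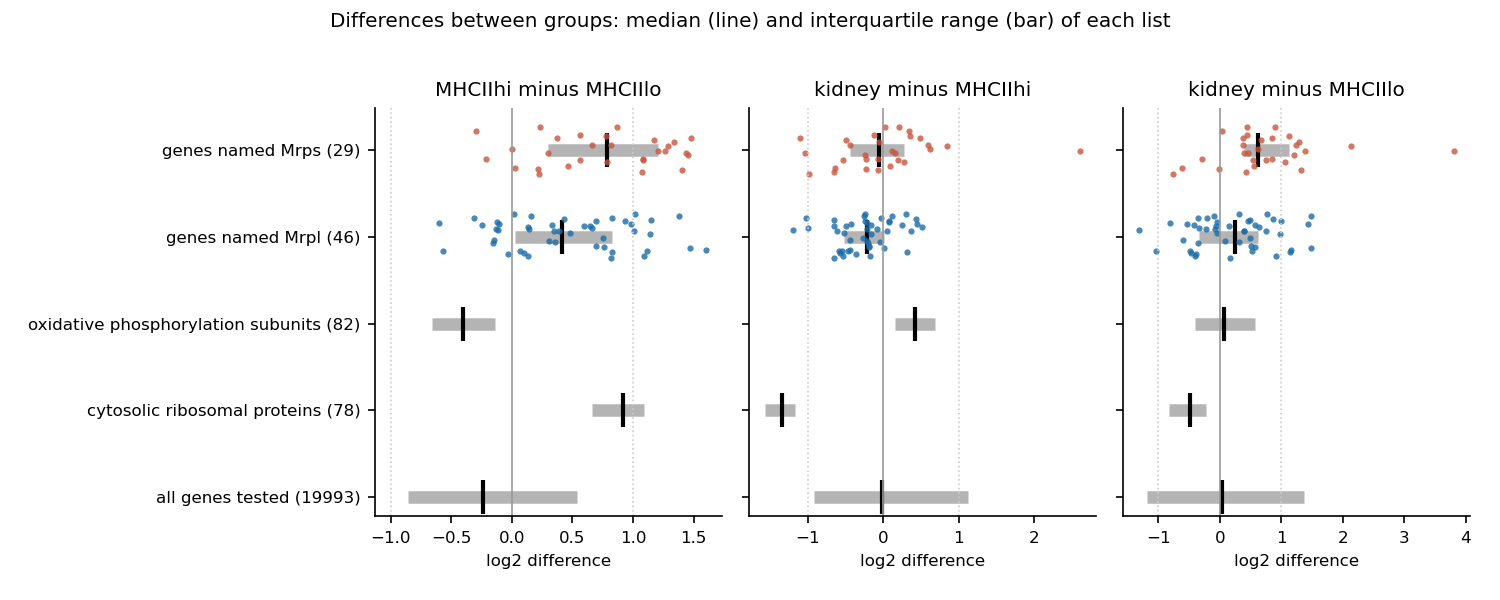
Log2 differences in the 3 comparisons for genes named Mrps and Mrpl (points are genes), oxidative phosphorylation subunits, cytosolic ribosomal proteins and all genes tested; black lines are medians, grey bars interquartile ranges and dotted lines the size threshold. In MHCIIhi minus MHCIIlo, the medians of both name groups lie right of 0 with cytosolic ribosomal proteins (median 0.92). Oxidative phosphorylation lies left (median -0.40, but -0.00 with quantile normalization), as do all genes tested (median -0.24). In kidney minus MHCIIhi the cytosolic list lies left (median -1.35, but -0.59 with cyclic loess).

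**Figure D5:**
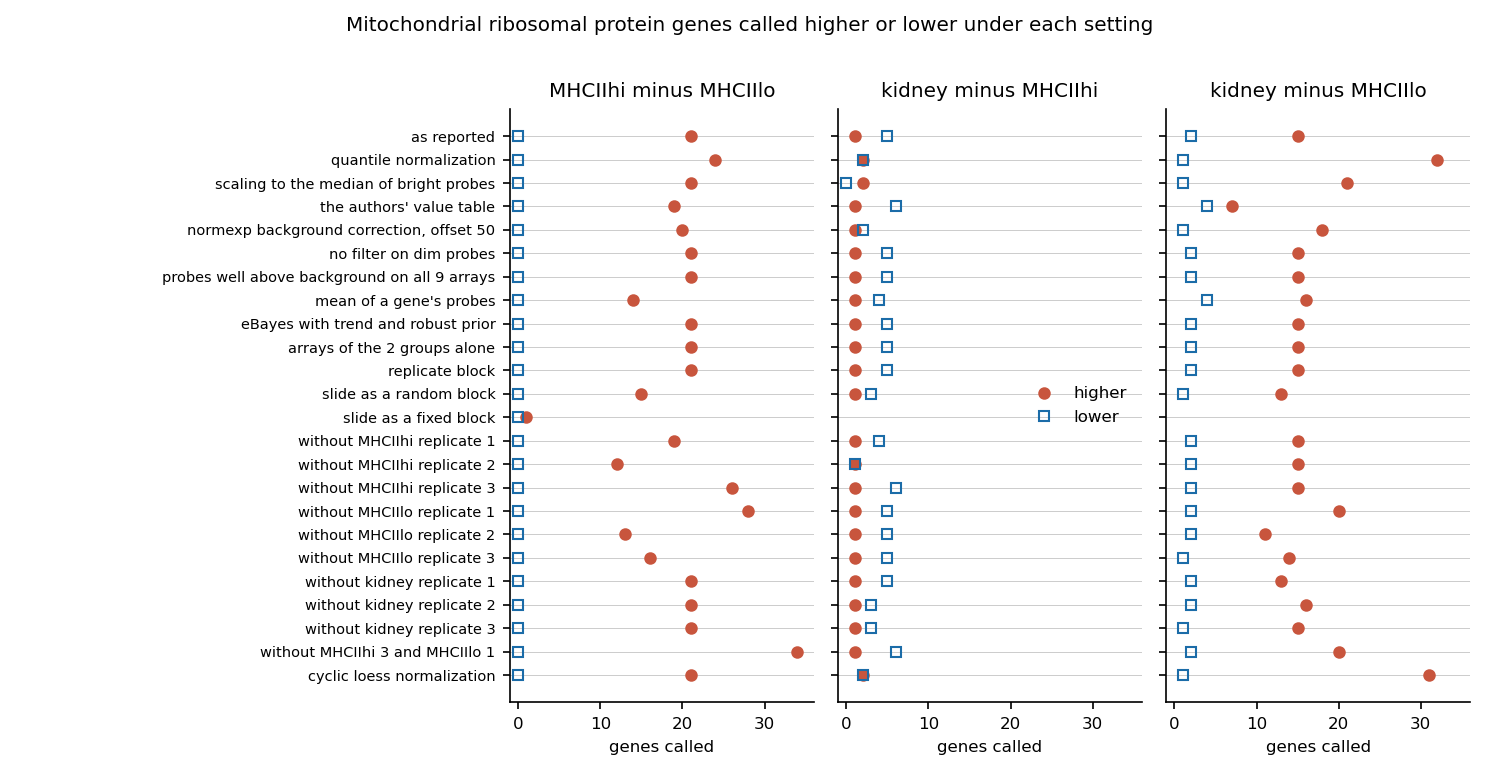
Number of the 75 genes called higher (filled) or lower (open) in each comparison under each setting of scaling, filter, probe choice, block and array left out. Most counts higher in MHCIIhi lie below the 34 found without MHCIIhi 3 and MHCIIlo 1, and counts higher in kidney than in MHCIIlo run between 7 and 32. The share of all genes called, not drawn, also moved with the setting.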

How the data were processed

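RNA of 9 sorted cell pools was hybridised, 1 pool to an array, to single-colour Agilent arrays. Extraction and Cy3 labelling were done by a service provider, per the labels' protocols, and scans were quantified in Feature Extraction 10.5.1.1, as the headers record. The processed signal, per the file headers, is an intensity on a linear scale with background already subtracted; no scaling between arrays had been applied. In the value table that the authors deposited, each processed intensity was found to be divided by its array's median (largest relative deviation 2.37e-05), so columns are linear, have a median of 1 and were not centred by gene.

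Control and outlier spots were dropped and repeated spots of a probe averaged. Each array was scaled to its 75th percentile on the log2 scale. For every gene the brightest probe, by mean over all arrays, was used, and 19993 genes stayed in because that probe was well above background in all 3 samples of some group. limma 3.58.1 in R 4.3.3 was fitted to the 9 arrays with group as factor. Benjamini-Hochberg adjustment ran over all genes. A gene was called where adjusted p was under 0.05 and the log2 difference reached 1 in size. The code was tested on simulated data. Python 3.11.15, pandas 2.3.3 and matplotlib 3.10.9 served for sequence searches and figures. Of 125 member probes, 108 matched a RefSeq accession, and none changed name.

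Members, lists and alternatives were chosen with earlier results of these data known. Named were, in each comparison, the 6 largest called differences per direction without overlap of the groups and called members against the majority, then the Mrps18 paralogs, members with textbook roles, the 5 brightest and 5 dimmest probes, the 4 uncalled members with the smallest range, and up to 4 called genes of each other list. The number of arrays limits the precision. Equal replicate numbers did not pair arrays: deviations of same-numbered intestinal arrays correlated at 0.19, -0.35 and 0.28.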

Additional observations from a re-analysis of the deposited data

How the results depend on the processing

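The values above depend mostly on scaling, slide and single arrays, and 3 arrays per group limit all of them. For MHCIIhi minus MHCIIlo, 1 gene was higher with slide as a fixed block, where MHCIIhi 3 stands alone against MHCIIlo (median 0.31), 39 were higher and 1 lower at the adjusted p alone, and 34 were higher (median 0.90) without MHCIIhi 3 and MHCIIlo 1, a choice made after seeing the data, as was cyclic loess. Leaving out each array gave 12 to 28 higher and 0 lower, with medians of 0.47 to 0.76. The fewest came without MHCIIhi 2 (beside 12.8% of all genes), 13 without MHCIIlo 2 (13.4%) and the most without MHCIIlo 1 (16.5%). Relative to the median of all genes, the member median was 0.83 as reported, 0.85 with quantile normalization, 1.20 with normexp and 0.39 with slide as a fixed block; for kidney minus MHCIIhi it was -0.17 as reported, 0.13 with quantile normalization and 0.28 with normexp.

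For kidney minus MHCIIhi, quantile normalization gave 2 higher and 2 lower (median 0.10), scaling to the median of probes well above background 2 and 0 (median 0.0050), cyclic loess 2 and 2 (median 0.15), normexp 2 lower, slide as a random block 3 lower, and the adjusted p alone 5 and 16. The authors' deposited value table gave a median of -0.47. Leaving out each array gave 1 higher throughout, 1 to 6 lower (1 without MHCIIhi 2, 3 without kidney 2 or kidney 3) and medians of -0.31 to -0.06. For kidney minus MHCIIlo, quantile normalization gave 32 higher and 1 lower (median 0.89), cyclic loess 31 and 1 (median 0.90), the authors' deposited values 7 and 4 (median 0.14), normexp 1 lower (median 0.73), scaling to the median of probes well above background 1 lower, averaged probes 4 lower, slide as a random block 1 lower and the adjusted p alone 31 and 10. Leaving out each array gave 11 to 20 higher and 1 to 2 lower (1 without MHCIIlo 3 or kidney 3), with medians of 0.33 to 0.64. The cause of these shifts was not tested.

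The replicate block left counts at 21 and 0, 1 and 5, and 15 and 2. Of the called genes picked by the naming rule, 1 of 7, 1 of 6 and 6 of 8 stayed called under every alternative in the 3 comparisons. None of these changed sign. Mrps2, called in kidney minus MHCIIlo but not picked there by that rule, did change sign. It ran from -0.75 to 1.55, and its call was lost in 4 of 22 alternatives, averaged probes among them. Named genes that were not called changed sign between MHCIIhi and MHCIIlo as follows. Mrps18c had -0.034 with slide as a fixed block and -0.053 to 0.12 with an array left out. Mrpl12 had -0.057 and Mrps15 -0.078 with slide as a fixed block. With normexp, Mrpl10 had 0.054, Mrps36 0.0086, Mrpl55 0.066 and Mrpl20 0.10. Mrpl55 had 0.26 and Mrpl20 0.30 with quantile normalization, and 0.10 and 0.13 with cyclic loess. Mrpl55 also ranged between -0.21 and 0.011 with an array left out and had 0.10 without MHCIIhi 3 and MHCIIlo 1.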
